A study of Mus musculus with 8 samples.

Results

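Membrane-actin linkers are proteins that tie the plasma membrane to the actin filaments beneath it. The RNA of 8 mouse genes of this kind was followed in blastocysts that were vitrified with or without melatonin or left fresh: Marcks and its relative Marcksl1, the ezrin family of Ezr, Rdx and Msn, the scaffold Slc9a3r1, and Ahnak with Anxa2. They were taken by gene name from a table of 19688 genes, each name matched 1 row, and all 8 passed the filter on low values described below. The choice was made with results of these libraries known, so the differences of these 8 genes are a description of the libraries and are not independent evidence for anything.

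MVT blastocysts (3 libraries) were vitrified, that is, solidified in cryoprotectant without ice, and thawed, with 1e-10 M melatonin in the media of both steps. VT blastocysts (3 libraries) were vitrified and thawed without melatonin, and the control group held fresh blastocysts (2 libraries) that were never vitrified. The sample titles label the fresh libraries IVF and the other groups VT and MVT. All samples were whole mouse blastocysts, the stage with an outer trophectoderm around an inner cell mass and a cavity. The sources used here do not state the strain, the number of embryos behind a library, or whether biosamples came from separate animals or cultures, so every p-value measures only the spread between these libraries.

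Ezrin, radixin and moesin, the ERM proteins, bind membrane proteins and phosphoinositides with one end and filamentous actin with the other, and ezrin marks the apical, microvillus-bearing surface of the outer cells of the early mouse embryo. MARCKS proteins lie on the inner face of the membrane, where they hold acidic phospholipids and bind actin, and they leave it when phosphorylated by protein kinase C or bound by calmodulin. Annexin A2, the product of Anxa2, binds membranes in the presence of calcium together with the S100 protein made from S100a10, and the very large AHNAK protein binds that complex.

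The values were FPKM, fragment counts scaled to transcript length and to the size of the library, so levels of different genes can be set beside each other. The steps between low values gave an estimate of 5816000 to 9997000 assigned fragments per library. Between 14544 and 14889 genes were above 0 FPKM in MVT libraries, against 15749 to 16400 in VT and 14260 and 14741 in fresh libraries. Fresh replicate 1 stood apart from the other 7 libraries, with 11.3% of its summed FPKM in mitochondrially encoded transcripts, against 4.24% to 6.56% in the others, and with a first principal component of 52.5, against -18.4 to 14.2. Y-linked transcripts summed to 0 FPKM in VT replicates 2 and 3 and to between 20.9 and 36.8 FPKM in the other 6 libraries. The trophectoderm markers, led by the keratin gene Krt18, summed to 9597 to 12130 FPKM in MVT, 6988 to 11450 in VT and 8744 to 8750 in fresh libraries, and 10 of 10 were in the table. Cumulus cell markers, of which 2 of 8 were in the table, summed to 0 FPKM in MVT, 0.307 to 1.39 in VT and 0.185 to 0.503 in fresh libraries. Fibroblast markers, with 3 of 6 in the table, summed to 0 FPKM in MVT and reached at most 0.336 in VT and 0.124 in fresh libraries.

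Sequence upstream of the start of transcription, from RefSeq (GRCm38.p6), could not be matched by symbol for Marcks and was matched for the other 7 of the 8 genes. Of these, Ezr, Msn and Ahnak had FPKM in the VT libraries that did not overlap those of fresh blastocysts, and their 250 bases before the start are shown 5′ to 3′ on the strand of the gene. Capitals mark the GC box GGGCGG on either strand, the core of sites bound by SP and KLF factors. The Ezr window is chr17:6782781-6783030 on the minus strand, the Msn window chrX:96095795-96096044 and the Ahnak window chr19:8989034-8989283, the last pair on the plus strand.
Ezr: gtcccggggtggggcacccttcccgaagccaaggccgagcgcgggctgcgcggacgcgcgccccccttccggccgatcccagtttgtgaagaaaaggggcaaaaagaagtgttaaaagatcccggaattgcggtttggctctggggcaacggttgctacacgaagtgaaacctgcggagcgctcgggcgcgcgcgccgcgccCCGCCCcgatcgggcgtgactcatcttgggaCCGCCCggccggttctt
Msn: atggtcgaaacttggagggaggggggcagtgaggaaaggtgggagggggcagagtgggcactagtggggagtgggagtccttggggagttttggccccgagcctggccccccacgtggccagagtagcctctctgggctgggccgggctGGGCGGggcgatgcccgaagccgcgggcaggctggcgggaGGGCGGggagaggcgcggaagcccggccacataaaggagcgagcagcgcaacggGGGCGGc
Ahnak: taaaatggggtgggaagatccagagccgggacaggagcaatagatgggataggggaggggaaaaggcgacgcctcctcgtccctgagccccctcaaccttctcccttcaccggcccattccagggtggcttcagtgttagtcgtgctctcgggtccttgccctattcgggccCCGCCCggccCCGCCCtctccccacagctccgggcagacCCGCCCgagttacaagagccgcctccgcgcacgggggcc
The box was found 2 times before Ezr, 3 times before Msn and 3 times before Ahnak, and also 3 times before both Anxa2 and Slc9a3r1, whose VT and fresh values overlapped. In all, 5 of 8 windows of the 7 genes held it (Rdx has 2 annotated starts), against 32.7% of all 32851 windows of this length in the table. The windows were rich in G and C, at 67.2% for Ezr, 71.6% for Msn and 66.4% for Ahnak, where the median window had 52.4%. The AP-1 motif TGANTCA, read on both strands, was in 2 of 8 windows, those of Ezr and Anxa2, and in 6.75% of all windows. The TEAD motif GGAATG was in 1 of 8 (Ahnak) against 12.6% of all windows. The CArG box, to which serum response factor binds, was in 0 of 8, against 1.47%. A match describes these letters only, and no binding was measured.

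Marcks, at chromosome 10, 37133375 to 37138920 on the minus strand (mm10), was the gene that set the VT libraries apart most clearly. It stood at 8.13, 14.4 and 11.1 FPKM in MVT replicates 1 to 3, at 31.0, 39.5 and 39.7 in VT replicates 1 to 3, and at 14.7 and 13.8 in fresh replicates 1 and 2. All 3 VT libraries lay above all 5 others, while the MVT and fresh values overlapped. The nuclear RNA Malat1 divided the libraries in the same way, at 70.3 to 94.3 FPKM in MVT, 139.6 to 149.2 in VT and 11.4 and 93.4 in fresh libraries, as did the number of genes above 0, and the part of either in the Marcks and Ahnak values was not tested. Marcks has a single annotated transcript, and for it the values came to whole estimated fragments. These were 235, 342 and 316 in MVT, 880, 1097 and 1319 in VT, and 596 and 326 in fresh libraries. The counting error of these estimates was not computed.

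Marcks averaged 36.7 ± 4.99 FPKM in VT (SD, n = 3) and 14.3 ± 0.622 in fresh blastocysts (SD, n = 2), which is 1.29 ± 0.23 higher (SE) on the log2 scale (limma adjusted p = 0.0441, over all 10755 genes tested). With melatonin it averaged 11.2 ± 3.13 FPKM (SD, n = 3), against the same VT level, a log2 fold change of -1.65 ± 0.21 (SE, limma adjusted p = 0.0246). Fold changes here are differences of mean log2(FPKM + 1), and the comparisons share the VT libraries, so 1 high VT level enters both. Between MVT and fresh blastocysts the difference was -0.36 ± 0.23 (limma adjusted p = 0.431), which did not pass and does not show that the levels were equal. The VT minus fresh difference lay at percentile 98.0 and the MVT minus VT difference at percentile 0.335 of all tested genes. Neither call held in all fits that left out 1 library. That between VT and fresh blastocysts held in 2 of 8 (without MVT replicate 1 or 2). It was lost without MVT replicate 3, a library outside that comparison, with the fold change still 1.29 (limma adjusted p = 0.0772). The call between MVT and VT held in 4 of 8 (without MVT replicate 2, VT replicate 1, or fresh replicate 1 or 2). The log2 fold changes of these fits were 1.24 to 1.41 for VT minus fresh and -1.84 to -1.46 for MVT minus VT.

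Marcksl1, whose protein has the same membrane and calmodulin binding mode, was expressed above Marcks in every library. It stood at 181, 116 and 165 FPKM in MVT, at 185, 163 and 168 in VT, and at 272 and 145 in fresh libraries. The 3 groups overlapped, and the highest value was that of fresh replicate 1. Its difference was -0.21 ± 0.27 between VT and fresh and -0.18 ± 0.24 between MVT and VT blastocysts (limma adjusted p = 0.701 and 0.752), and neither passed. The VT minus fresh difference was 0.24 without fresh replicate 1 and -0.66 without fresh replicate 2, so no direction can be given, and that of MVT from VT was 0.01 without MVT replicate 2. Marcks therefore made up 4.31%, 11.1% and 6.27% of the summed FPKM of both genes in MVT, 14.4%, 19.5% and 19.1% in VT, and 5.14% and 8.69% in fresh libraries. Every VT library exceeded every other library in this share, while the summed FPKM of both genes, at 129.9 to 188.7 in MVT, 202.7 to 215.7 in VT and 159.3 and 286.3 in fresh libraries, overlapped between VT and fresh blastocysts.

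**Figure D1:**
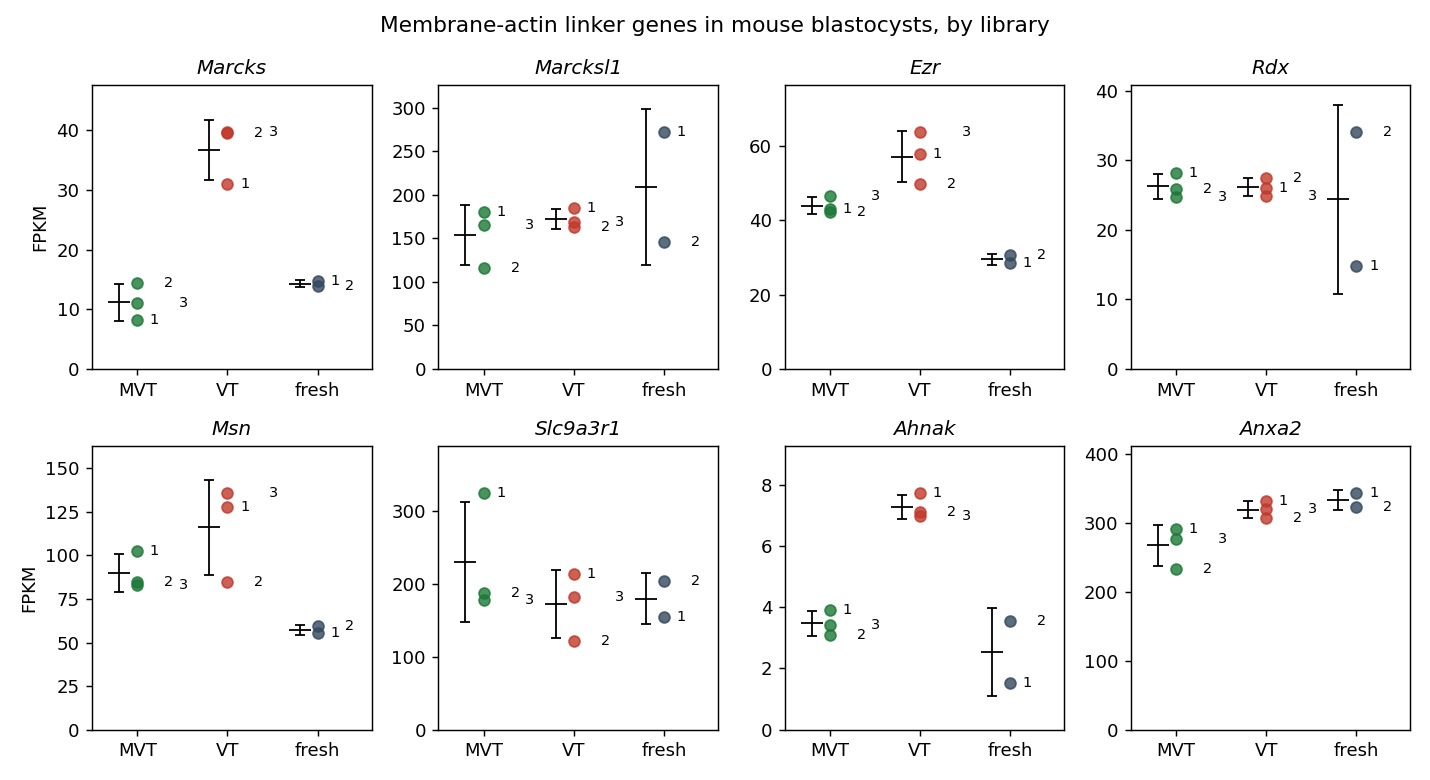
FPKM of the 8 genes in each library (points, numbered by replicate), with the mean and SD of each group (bar at the left of the points; n = 3 MVT, 3 VT, 2 fresh). VT libraries lie above all others for Marcks (31.0 to 39.7 FPKM) and Ahnak (6.98 to 7.73), and fresh libraries lie below all others for Ezr (28.4 and 30.6) and Msn (55.3 and 59.3).

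Ezr (chromosome 17, 6738041 to 6782784, minus strand) showed an order of groups without overlap. It stood at 43.0, 42.4 and 46.6 FPKM in MVT, at 57.9, 49.9 and 63.8 in VT, and at 28.4 and 30.6 in fresh libraries. All 3 MVT libraries lay between the other groups. Its VT mean of 57.2 ± 6.95 FPKM (SD, n = 3) against 29.5 ± 1.52 in fresh blastocysts (SD, n = 2) gave a log2 fold change of 0.93 ± 0.16 (SE, limma adjusted p = 0.0407). The difference of MVT from VT was -0.37 ± 0.14 (limma adjusted p = 0.282) and that of MVT from fresh 0.56 ± 0.16 (limma adjusted p = 0.151), and neither passed. The VT call held in 1 of 8 fits that left out a library, that without fresh replicate 2, though the fold change stayed between 0.84 and 1.02.

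Msn, the moesin gene on the X chromosome (96096042 to 96168552, plus strand), was the most abundant of the ezrin family. It stood at 103, 84.8 and 82.9 FPKM in MVT, at 128, 85.0 and 136 in VT, and at 55.3 and 59.3 in fresh libraries. All 6 vitrified libraries lay above both fresh libraries, while MVT and VT overlapped. The log2 fold change of VT over fresh was 0.98 ± 0.21 (limma adjusted p = 0.0578), just short of the threshold, and that of MVT over fresh 0.64 ± 0.21 (limma adjusted p = 0.181). Between MVT and VT it was -0.34 ± 0.19 (limma adjusted p = 0.428). The VT libraries without Y-linked transcripts, replicates 2 and 3, held the lowest and the highest Msn value of their group, and VT replicate 1, with Y-linked transcripts, lay between them.

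Rdx, which encodes radixin, was nearly level among the vitrified libraries. It stood at 28.2, 25.9 and 24.7 FPKM in MVT and at 26.0, 27.4 and 24.9 in VT libraries, while the fresh libraries lay on either side of all of these, at 14.8 and 34.0. The log2 fold change was 0.20 ± 0.28 for VT over fresh and 0.01 ± 0.25 for MVT over VT (limma adjusted p = 0.727 and 0.994). Without fresh replicate 1 the VT minus fresh value was -0.37 and without fresh replicate 2 it was 0.78, so no direction can be given.

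Summed over Ezr, Rdx and Msn, the family reached 160 ± 11.6 FPKM in MVT (SD, n = 3), 200 ± 32.8 in VT (SD, n = 3) and 111 ± 17.9 in fresh libraries (SD, n = 2). Moesin made up 53.8% to 59.1% of the sum in MVT, 52.4% to 60.5% in VT and 47.8% and 56.1% in fresh libraries. Ezrin's share was 24.7% to 30.2% in MVT, 27.3% to 30.8% in VT and 24.7% and 28.9% in fresh libraries, so the makeup of the family overlapped between groups where its sum did not overlap between vitrified and fresh libraries. Across the 8 libraries Ezr and Msn had a Pearson r of 0.94 on the log2 scale, and Ezr and Rdx one of 0.28. These r values describe points that share group and library.

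**Figure D2:**
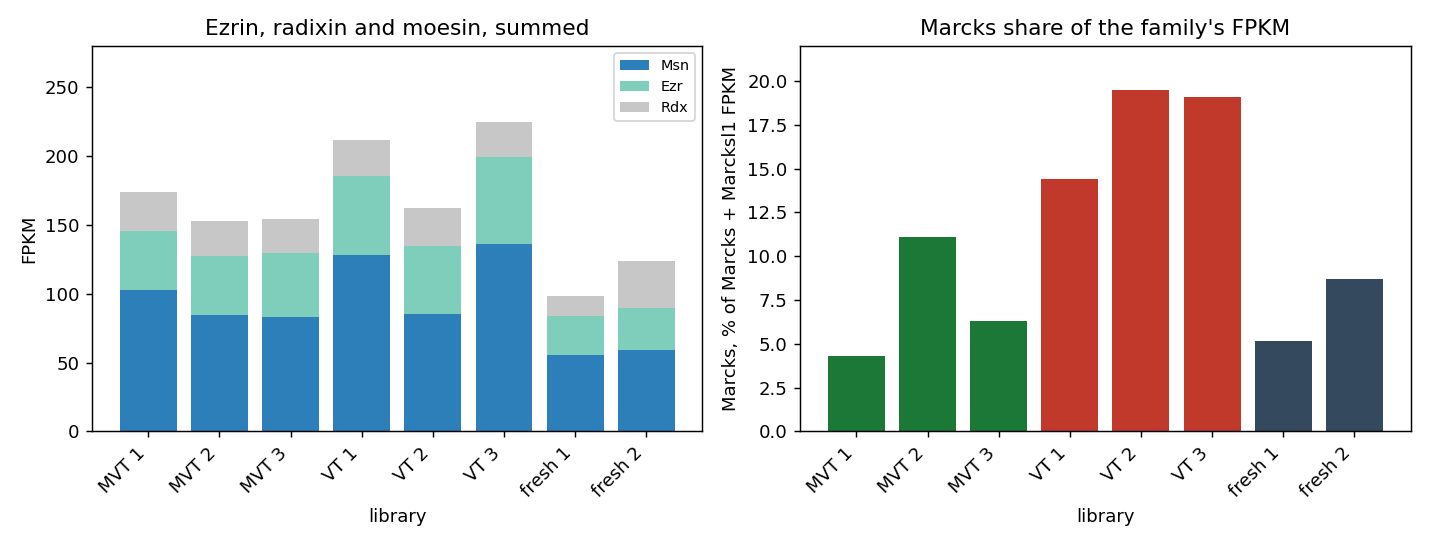
Left, FPKM of Msn, Ezr and Rdx stacked for each library; right, Marcks as a percentage of the summed FPKM of Marcks and Marcksl1 (green MVT, red VT, dark blue fresh). The ezrin family sums to 98.5 and 123.9 FPKM in fresh libraries, below all vitrified libraries (153.1 to 224.5), and the Marcks share is 14.4% to 19.5% in VT libraries, above all others (4.31% to 11.1%).

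Slc9a3r1 encodes the PDZ scaffold NHERF1, which ERM proteins hold beneath the membrane and which gathers transporters and receptors. It stood at 325, 188 and 178 FPKM in MVT, at 214, 122 and 182 in VT, and at 155 and 204 in fresh libraries. MVT replicate 1 was the highest library and VT replicate 2 the lowest, and all groups overlapped. The log2 fold change was -0.08 ± 0.30 for VT over fresh and 0.40 ± 0.27 for MVT over VT (limma adjusted p = 0.909 and 0.519). With 1 library left out, the first ran from -0.28 (without fresh replicate 1) to 0.15 (without VT replicate 2), and the second was 0.12 without MVT replicate 1 and 0.17 without VT replicate 2.

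Ahnak (chromosome 19, 8989284 to 9076914, plus strand) was the least abundant of the 8 genes. It stood at 3.90, 3.09 and 3.43 FPKM in MVT, at 7.73, 7.09 and 6.98 in VT, and at 1.51 and 3.54 in fresh libraries. All 3 VT libraries exceeded all 5 others, as they did in Malat1 and in genes above 0, while MVT and fresh overlapped. The VT mean of 7.27 ± 0.401 FPKM (SD, n = 3) against 2.53 ± 1.44 in fresh blastocysts (SD, n = 2) gave a log2 fold change of 1.29 ± 0.26 (limma adjusted p = 0.0541), and 3.47 ± 0.407 FPKM in MVT (SD, n = 3) against VT gave -0.89 ± 0.23 (limma adjusted p = 0.172). Neither passed, and the first depended on the fresh libraries, at 0.86 (adjusted p = 0.124) without fresh replicate 1 and 1.72 (adjusted p = 0.0122) without fresh replicate 2. The exons of this gene span 19938 bases, so an estimated 301 to 1143 fragments stood behind even these low FPKM.

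Anxa2 was the most abundant of the 8 genes and varied least, by 1.47-fold from the lowest to the highest library. It stood at 292, 234 and 277 FPKM in MVT, at 332, 307 and 319.9 in VT, and at 344 and 324 in fresh libraries. The MVT libraries lay below all 5 others, and VT and fresh overlapped. The log2 fold change was -0.26 ± 0.13 for MVT over VT, -0.32 ± 0.14 for MVT over fresh and -0.06 ± 0.14 for VT over fresh (limma adjusted p = 0.375, 0.268 and 0.844), and none passed. S100a10, which encodes the partner of annexin A2 and was named for that role after its values were seen, averaged 64.5 ± 8.91 FPKM in MVT (SD, n = 3), 103 ± 25.8 in VT (SD, n = 3) and 119.8 ± 72.8 in fresh libraries (SD, n = 2), a difference of -0.64 ± 0.31 for MVT over VT (limma adjusted p = 0.371).

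Relative to fresh blastocysts, 2 of the 8 genes rose in VT (Marcks and Ezr), 0 fell and 6 did not pass, where 0.865% of all tested genes passed, 0.762% as higher and 0.102% as lower. At an unadjusted p below 0.05 there were 4 of the 8, against 20.2% of all tested genes. Libraries did not overlap for 4 of the 8, all higher in VT (Marcks, Ezr, Msn and Ahnak), against 37% of all tested genes (26.4% higher and 10.6% lower). Since the genes were chosen with such results known, nothing is read from these counts. The median of the 8 was 0.565, and that of all tested genes 0.138, above which Marcks lay by 1.16, Ahnak by 1.15, Msn by 0.84 and Ezr by 0.79. The direction of these 4 was kept under both scalings tried, but the calls of Marcks and Ezr were lost. Under median ratio scaling Marcks was at 1.13 and Ezr at 0.76 (limma adjusted p = 0.0653 and 0.0725), and under quantile normalization they were at 1.18 and 0.89 (limma adjusted p = 0.068 and 0.0642). The split of all genes called moved to 3 higher and 4 lower and to 0 higher and 3 lower in these fits, against 82 higher and 11 lower in the unscaled table.

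Other measures of the libraries moved with this comparison. The epiblast markers, led by Tdgf1, summed to 139.1 to 179.8 FPKM in VT and 27.7 to 73.6 in fresh libraries. Of 7 that could be tested, 1 (Nanog) passed as higher and 6 had an unadjusted p below 0.05, all higher, the list median was 1.37, and 1 of the 8 was at 0 in fresh replicate 1. Primitive endoderm markers summed to 154.0 to 211.9 FPKM in VT and 101.4 to 159.6 in fresh libraries, with 0 of 8 passing limma at the adjusted threshold and 2 at an unadjusted p below 0.05. In the trophectoderm list 1 of 10 passed, Cldn4, as lower, and the list median was 0.02. Embryo sex also differed, since both fresh libraries and VT replicate 1 alone had Y-linked transcripts. With sex as a covariate the comparison rests on that VT library, and the calls were lost, with Marcks at 1.06 and Ezr at 0.95 (limma adjusted p = 0.232 and 0.174). In whole blastocysts, fewer cells of a type and less RNA per cell cannot be told apart, and the part of cell makeup in the differences of the 8 genes was not tested.

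Between MVT and VT blastocysts, 1 of the 8 genes fell (Marcks), 0 rose and 7 did not pass, where 0.139% of all tested genes passed, 0.0279% as higher and 0.112% as lower. At an unadjusted p below 0.05 there were 3 of the 8, against 14.8% of all tested genes. Libraries did not overlap for 4 of the 8, all lower in MVT (Marcks, Ezr, Ahnak and Anxa2), against 24.7% of all tested genes (9.3% higher and 15.4% lower), and again nothing is read from these counts. The median of the 8 was -0.301 and that of all tested genes -0.0523. Embryo sex differed between these groups too, since Y-linked transcripts were in all 3 MVT libraries and in VT replicate 1 alone. Marcks was at 31.0 FPKM in that VT library, above all MVT and fresh libraries but the lowest of its group. It was at 39.5 and 39.7 in VT replicates 2 and 3, which had no Y-linked transcripts. With sex as a covariate the comparison rests on VT replicate 1, and the Marcks difference was -1.42 (limma adjusted p = 0.364). The part of sex in the Marcks difference cannot be told from 1 library. Primitive endoderm markers summed to 112.5 to 168.2 FPKM in MVT and 154.0 to 211.9 in VT libraries. Of these markers, 2 of 8 were lower at an unadjusted p below 0.05, with a list median of -0.45. In the epiblast list 2 of 7 were lower at that threshold (median -0.05), and in the trophectoderm list 1 of 10 was higher (median 0.24). No marker of these lists passed limma at the adjusted threshold, and their part in the result was not tested.

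Between MVT and fresh blastocysts, 0 of the 8 genes passed limma at the adjusted threshold, as did 0 of all genes (0%), and 3 of the 8 had an unadjusted p below 0.05 (Ezr, Msn and Anxa2), as had 18.5% of all genes. Libraries did not overlap for Ezr and Msn, higher in MVT, and for Anxa2, lower in MVT, against 34.3% of all tested genes (20.8% higher and 13.5% lower). The differences not yet given were -0.39 ± 0.27 for Marcksl1, 0.21 ± 0.28 for Rdx, 0.32 ± 0.30 for Slc9a3r1 and 0.40 ± 0.26 for Ahnak (limma adjusted p = 0.457, 0.729, 0.607 and 0.434). Rdx turned on the fresh libraries, at -0.36 without fresh replicate 1 and 0.78 without fresh replicate 2, where it passed (limma adjusted p = 0.0478), and Ahnak likewise, at -0.03 and 0.83. The median of the 8 was 0.263 and that of all tested genes 0.0927. Epiblast markers moved with this comparison, summing to 140.1 to 158.3 FPKM in MVT and 27.7 to 73.6 in fresh libraries. Of 7 tested, 0 passed limma at the adjusted threshold and 4 had an unadjusted p below 0.05, all higher, with a list median of 1.2, and their part in the differences of the 8 genes was not tested.

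**Figure D3:**
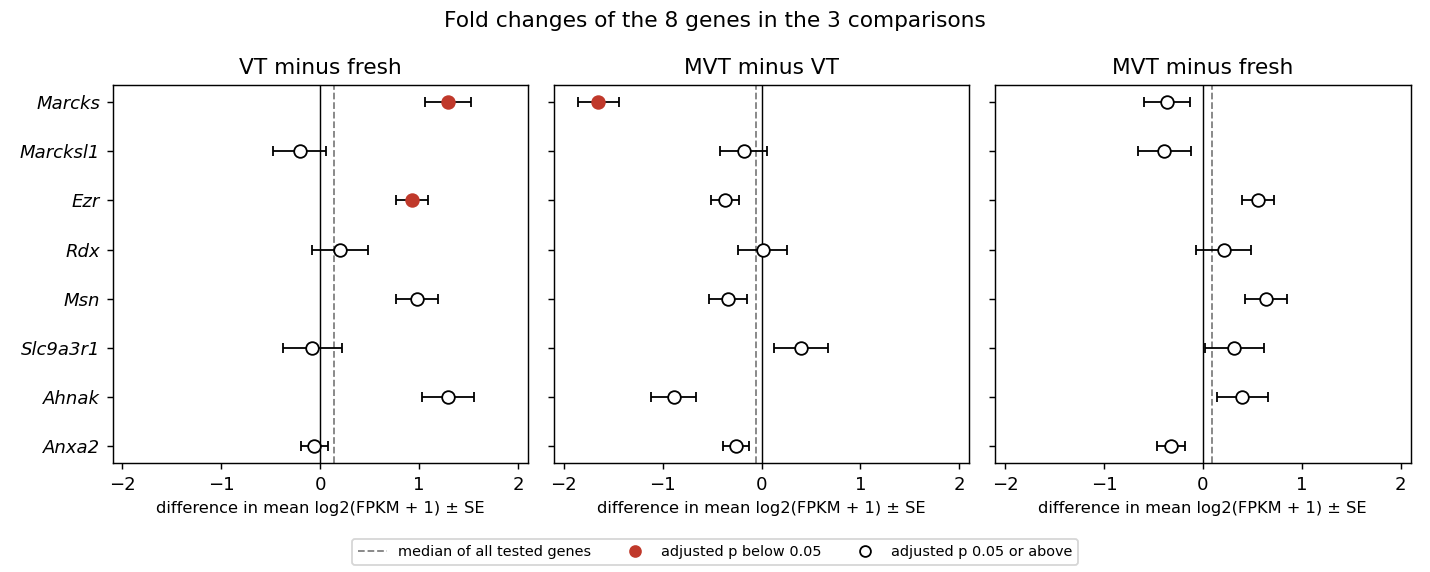
Differences in mean log2(FPKM + 1) of the 8 genes with their SE in the 3 comparisons; filled points passed the limma threshold over all genes, and the dashed line is the median of all tested genes. Marcks is at 1.29 for VT minus fresh and -1.65 for MVT minus VT, and Ezr is at 0.93 for VT minus fresh.

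A further 6 lists held other genes of the membrane cortex, chosen by function but with earlier results of these libraries known. The counts and medians of all 6 lists, here and below, therefore describe these libraries and are not independent evidence for anything. Among ERM regulators and partners, 0 of 20 tested genes passed in any comparison, with 4, 3 and 2 at an unadjusted p below 0.05 (VT against fresh, MVT against VT, MVT against fresh). Over all tested genes these shares were 20.2%, 14.8% and 18.5%, against which the unadjusted counts of all 6 lists are to be read, and 4 of 20 is near that background. Its most abundant gene was Arhgdia, whose product ERM proteins bind, at 84.9 ± 3.24 FPKM in MVT (SD, n = 3), 129.2 ± 14.8 in VT (SD, n = 3) and 135.7 ± 65.0 in fresh libraries (SD, n = 2). Among regulators and relatives of MARCKS, 0 of 11 passed in any comparison, with 1, 4 and 3 at an unadjusted p below 0.05. Calm2, 1 of the calmodulin genes, whose product removes MARCKS from the membrane, averaged 1330 ± 96.8 FPKM in MVT (SD, n = 3), 989.9 ± 57.3 in VT (SD, n = 3) and 1193 ± 105 in fresh libraries (SD, n = 2). The MVT minus VT difference of Calm2 was 0.43 ± 0.12 (limma adjusted p = 0.198), and its MVT and VT libraries did not overlap.

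Among annexins, S100 proteins and their partners, 1 of 13 rose in VT relative to fresh blastocysts (0.865% of all tested genes passed) and 7 had an unadjusted p below 0.05, all higher (20.2% of all), with a list median of 0.50 against 0.14 for all genes. That gene was Plat, which encodes tissue plasminogen activator, a ligand of the annexin A2 complex. Plat stood at 8.18, 12.0 and 10.7 FPKM in MVT, at 14.9, 16.0 and 13.4 in VT, and at 3.56 and 6.05 in fresh libraries, with no overlap between any of the groups, and its VT minus fresh difference was 1.47 ± 0.24 (limma adjusted p = 0.0394). Over all genes, 0 were called higher in VT without a filter, with quantile normalization or with the replicate block by biosample number. The call of Plat was therefore lost in these fits. None of the 13 passed in the other comparisons, where 2 (MVT against VT) and 3 (MVT against fresh) had an unadjusted p below 0.05, and the list medians were -0.49 and 0.06. S100a11, the most abundant of the list, averaged 509.2 ± 93.6 FPKM in MVT (SD, n = 3), 723 ± 111 in VT (SD, n = 3) and 901 ± 530 in fresh libraries (SD, n = 2).

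Among genes of the cortical scaffold of spectrin, adducin, filamin and related proteins, 1 of 19 rose in VT relative to fresh blastocysts (0.865% of all tested genes passed) and 6 had an unadjusted p below 0.05, all higher (20.2% of all), with a median of 0.64. This was Add3, an adducin that caps actin filaments and joins them to spectrin, at 3.77, 2.65 and 3.01 FPKM in MVT, 3.32, 4.19 and 4.93 in VT, and 0.628 and 0.940 in fresh libraries. The VT minus fresh difference of Add3 was 1.52 ± 0.23 (limma adjusted p = 0.0394), and all vitrified libraries lay above both fresh libraries. Both fresh values lay below the 1 FPKM that the filter required, so Add3 was tested only through its vitrified libraries. Its call was also lost in the fits named above for Plat. In the other comparisons 0 of 19 passed, 1 and 5 had an unadjusted p below 0.05, and the medians were 0.22 (MVT against VT) and 0.77 (MVT against fresh). The actin crosslinker Actn4, the most abundant of this list, averaged 253.7 ± 88.2 FPKM in MVT (SD, n = 3), 168 ± 53.1 in VT (SD, n = 3) and 126 ± 117 in fresh libraries (SD, n = 2).

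Microvillus genes had 0 of 9 passing in each comparison, 2 of 9 at an unadjusted p below 0.05 in each, and medians of 0.68, -0.12 and 0.56 (VT against fresh, MVT against VT, MVT against fresh). The actin bundler Pls3 was their most abundant gene, at 31.6 ± 7.32 FPKM in MVT (SD, n = 3), 27.9 ± 6.82 in VT (SD, n = 3) and 14.7 ± 1.85 in fresh libraries (SD, n = 2). Apical polarity genes had 0 of 14 passing in each comparison, with 2, 1 and 5 at an unadjusted p below 0.05 and medians of 0.16, -0.02 and 0.29. Prkci and Prkcz are also in the list of MARCKS regulators, so the counts of these lists are not separate. Prkcz was the 1 gene of MVT against VT. Both were among the 5 of MVT against fresh, of which 4 were higher and 1 (Crb3) lower. Cdc42, a GTPase of the polarity complex, was at 641 ± 19.9 FPKM in MVT (SD, n = 3), 600.3 ± 24.5 in VT (SD, n = 3) and 653 ± 26.4 in fresh libraries (SD, n = 2).

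**Figure D4:**
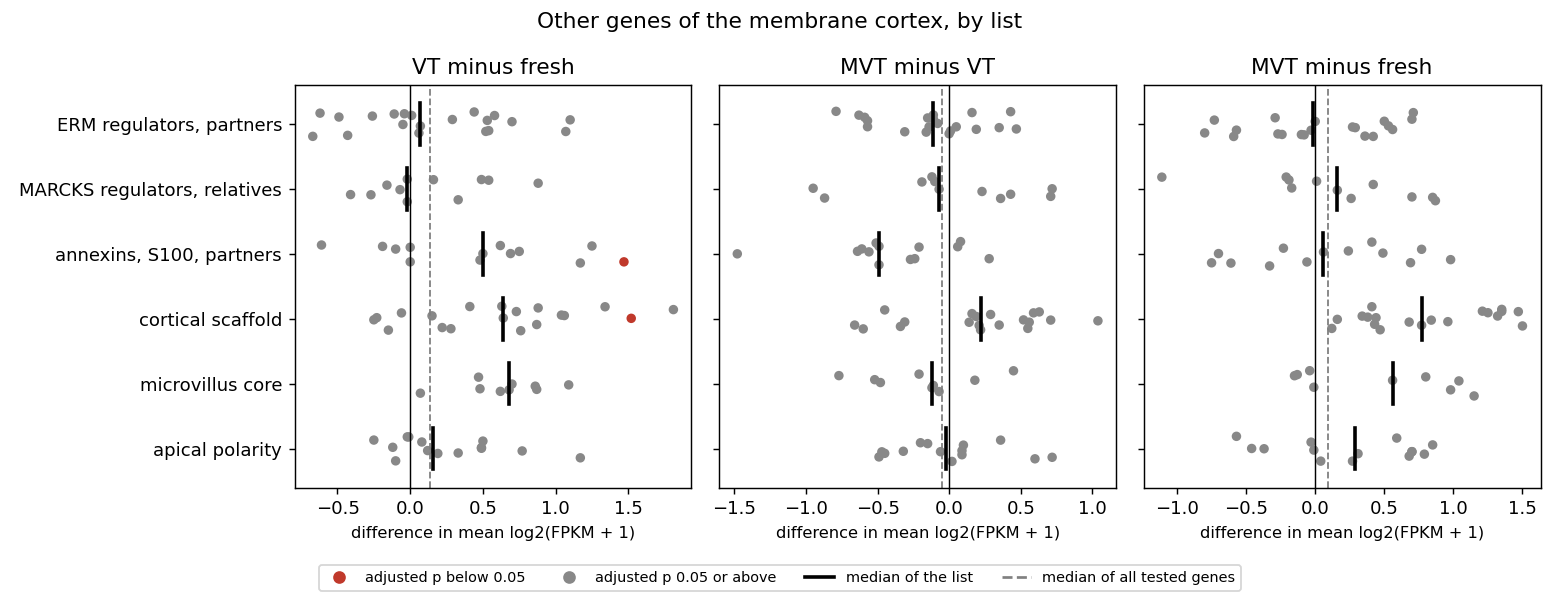
Differences in mean log2(FPKM + 1) of the tested genes of 6 lists in the 3 comparisons (points; red passed the limma threshold), with list medians as black bars and the median of all tested genes as a dashed line. Red points are Plat (1.47) and Add3 (1.52), both VT minus fresh.

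Over the 8 libraries and 5254 tested genes with a mean of at least 5 FPKM, provisional symbols and the 8 genes themselves left out, the profile most like that of Marcks was that of Yam1 (Pearson r of log2 values 0.9641), followed by Trim25 (0.9611). Ezr was most like Sycp3 (0.9899) and Mcm7 (0.9597), and Msn most like Capn2 (0.9754) and Rrp1 (0.9727). Ahnak was most like Ncor1 (0.9809) and Rest (0.9701), and Rdx most like Sephs1 (0.9666) and Dync1h1 (0.9621). Marcksl1 was most like Csnk1g2 (0.9365) and Basp1 (0.9312), which encodes a membrane protein of the same functional kind and a gene of the MARCKS list. Slc9a3r1 was most like Cyb561 (0.9709) and Myo1c (0.9664), and Anxa2 most like Cldn6 (0.9851) and Maoa (0.9743). With 8 points that share groups and depth, the values describe likeness over these libraries only.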

How the data were processed

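RNA of 8 mouse blastocyst libraries was measured. The authors deposited 1 table of FPKM, computed per library and not pooled, on mm10 per the submitters' processing notes; for aligner, counter, annotation, filters and strand the entry is: not given in the sources used here. Smart-seq2 is named in the series description, but poly(A) capture with strand-marked libraries in the sample protocol, so the library method is not settled. Groups and replicate numbers came from the biosample descriptions; the titles carry other numbers. The columns not used numbered 0.

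The FPKM, as deposited by the authors, were taken as log2(FPKM + 1) and tested with limma 3.58.1 (R 4.3.3; 1 mean per group, all 8 libraries, variance trend). Genes needed at least 1 FPKM in at least 2 libraries (10755 tested, 8933 not), and a two-sided p below 0.05, adjusted over all of them by Benjamini-Hochberg, was called. Fragments per library were estimated from genes with 1 annotated transcript (GENCODE M21), for which 93.2% to 95.6% of low values fell within 0.1 of a whole number. For genes with several transcripts the length of all exons was used, so their fragments are approximate. Coordinates are those of GENCODE M21 on mm10. Ezr, Msn and Anxa2 share 4, 136 and 98 exon bases with genes of the opposite strand, which cannot be told apart where counting ignores strand.

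The 8 genes and the lists were chosen with earlier results of these data known. All 8 genes are named in every comparison. Of each list, called genes (at most 3 per direction) are named, or, with none called, the gene of highest mean; the 2 most similar profiles are named per gene. Settings tried were a pseudocount of 0.1, a mean of 5 FPKM or more, no filter, median ratio scaling, quantile normalization, no variance trend, fits without the uncompared group, a replicate block (by biosample or title number), embryo sex as a covariate and each library left out. Python 3.11.15, pandas 2.3.3 and matplotlib 3.10.9 handled tables and plots.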

Additional observations from a re-analysis of the deposited data

How the results depend on the processing

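The number of the 8 genes called higher in VT than in fresh blastocysts, 2 in the fit reported, was 0 without a filter, with median ratio scaling, with quantile normalization, without the variance trend, with only the groups compared, with the replicate block by biosample number, with the replicate block by title number and with embryo sex as a covariate, and 0 to 2 when 1 library was left out. Between MVT and VT blastocysts it was 1, and 0 without a filter, with either replicate block and with embryo sex as a covariate, and 0 to 1 when 1 library was left out. Between MVT and fresh blastocysts it was 0, and 0 to 1 when 1 library was left out, the 1 being Rdx (0.78, adjusted p = 0.0478) without fresh replicate 2. The cause of these changes was not tested. A fit without a fresh library assumes that the other varies like the remaining groups.

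The Marcks difference from fresh ranged from 1.06 to 1.41 over 18 settings (limma adjusted p from 0.0418 to 0.232), that of Ezr from 0.76 to 1.02 (0.0354 to 0.174), and the Marcks difference of MVT from VT from -1.84 to -1.41 (0.0177 to 0.364). All kept their sign. Ahnak averages under 5 FPKM and was not tested under that filter. Over all genes, the number called between VT and fresh blastocysts was 93 and ranged from 1 (no filter, and replicate block) to 433 (without fresh replicate 2). Between MVT and VT it was 15 and ranged from 0 (block by title number) to 68, and between MVT and fresh it was 0 and ranged to 565 (without fresh replicate 2). Deviations of libraries with the same biosample number had low correlations, from -0.115 to 0.121. Among VT libraries, MVT replicates 1 and 2 were closest to those of their own number (0.121 and 0.068). MVT replicate 3 was closest to VT replicate 2 (0.055, against -0.03 for VT replicate 3). The 2 fresh libraries deviate in opposite directions by construction, so their correlations say little. These values do not decide whether the numbers mark pairs, and the fit reported did not take them as pairs. With them as a block 0 of the 8 genes were called in each comparison. With 2 or 3 libraries a group, only large differences can pass.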

Other observations

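Some genes of the cortex lists outside the naming rule were chosen after their values were seen. For Ppp3ca, Pdpn and S100a13 the VT libraries did not overlap those of either other group. Ppp3ca, the catalytic subunit of the calmodulin-dependent phosphatase calcineurin, was at 0.629 ± 0.159 FPKM in MVT (SD, n = 3), 1.97 ± 0.174 in VT (SD, n = 3) and 0.620 ± 0.247 in fresh libraries (SD, n = 2), and did not pass (limma adjusted p = 0.121 for MVT against VT and 0.0725 for VT against fresh). Its MVT and fresh levels lay below the 1 FPKM that the filter required, so Ppp3ca was tested only through its high VT libraries. Pdpn, the membrane glycoprotein podoplanin, which ERM proteins bind, was at 2.98 ± 0.926 FPKM in MVT (SD, n = 3), 5.80 ± 0.591 in VT (SD, n = 3) and 2.25 ± 0.270 in fresh libraries (SD, n = 2), and did not pass (limma adjusted p = 0.175 and 0.059). S100a13, a calcium-binding S100 protein, was at 12.0 ± 5.33 FPKM in MVT (SD, n = 3), 35.8 ± 16.5 in VT (SD, n = 3) and 14.9 ± 9.18 in fresh libraries (SD, n = 2), and did not pass (limma adjusted p = 0.194 and 0.178). Pard3, a scaffold of apical polarity, was unlike these genes, since its MVT and VT libraries overlapped. Its MVT mean lay between the others, at 3.19 ± 0.693 FPKM in MVT (SD, n = 3), 4.81 ± 0.998 in VT (SD, n = 3) and 1.58 ± 0.365 in fresh libraries (SD, n = 2). Pard3 did not pass either (limma adjusted p = 0.35 for MVT against VT, 0.0547 for VT against fresh and 0.191 for MVT against fresh).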
